A study of Mus musculus with 38 samples.

Results

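The Snrpn and Peg3 imprinted domains of mouse chromosome 7 were described by the calls of 5 histone marks in mouse embryonic stem cells (mESCs) with and without IκBα. The domains hold 9 of the 21938 protein-coding genes of GENCODE M21 (GRCm38) on chromosomes 1 to 19, X and Y. Peg3, Usp29 and Zim1 make up the Peg3 domain, and Ube3a, Snrpn, Ndn, Magel2, Mkrn3 and Peg12 lie in the Snrpn domain. These genes were chosen from calls of these same libraries, IκBα-KO against IκBα-WT, so the differences at the 9 genes are given as a description, with every library's value and without a test. Each gene was taken with 5 kb on either side of its body, and these windows ranged from 12.5 kb (Mkrn3) to 246.6 kb (Usp29). The Peg3 and Usp29 windows overlap at the start that the genes share, so a call there counts for both.

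All cells were of the ES-E14TG2a line and were taken at 0 h from culture with serum and leukaemia inhibitory factor. In IκBα-KO (KO) cells, labelled IkappBalpha-/- or IkappaBalpha-/-, Nfkbia, which encodes IκBα, had been edited by CRISPR with 2 guides against its first exon, and single clones without the protein were kept. IκBα-WT (WT) cells, labelled IkappBalpha+/+ or IkappaBalpha+/+, were clones that had received non-targeting guides. Chromatin immunoprecipitation and sequencing (ChIP-seq) gave 3 libraries per genotype for each of H3K9me3, H3K4me3, H3K4me1, H3K27ac and H3K27me3, 30 in all, and the study derived 3 clones per genotype. The labels do not tie a library to a clone, so the spread between libraries may be in part technical. The reads come from bulk cells, and a change in every cell and a change in the share of cells cannot be told apart. ChIP reads in calls ranged per library from 8548342 to 12105343 (H3K9me3), from 8910890 to 10938375 (H3K27me3), from 22943091 to 28339766 (H3K27ac) and from 34736939 to 35951506 (H3K4me1). The H3K4me3 lists hold 21836 to 26806 peaks per library and no read counts. Of 7 stem cell genes checked at the start site, all but Esrrb had H3K4me3 and H3K27ac calls in 6 of 6 lists. The annotated Esrrb start had no H3K4me3 call, and H3K27me3 was called in 6 of 6 lists at Esrrb and Klf4. All 6 genes of differentiating cells had H3K27me3 calls in 6 of 6 lists, 4 of them also H3K27ac (T, Gata6, Pax6, Cdx2) and 3 also H3K4me3 (T, Pax6, Cdx2).

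An imprinted gene is expressed from the allele of 1 parent. The choice is set by a differentially methylated region (DMR), whose DNA is methylated on the allele from one parent only. H3K9me3 marks the methylated allele of such regions and H3K4me3 the other, so both marks can be called at the same sequence in a population of cells. The zinc-finger protein ZFP57 binds a methylated hexamer there and is known to keep the methylation through early development. In the mouse, Peg3, Usp29, Snrpn, Ndn, Magel2, Mkrn3 and Peg12 are expressed from the paternal allele, Zim1 from the maternal allele, and Ube3a from the maternal allele in neurons.

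The sequences under the H3K9me3 calls that are described next carried both of the motifs searched. The ZFP57 hexamer TGCCGC, counted on both strands, had 8 matches in the 2 kb downstream of the Peg3 start and 8 in the 2 kb downstream of the internal Snrpn start at position 60005111. In the same 2 kb, 39.5% of 21938 protein-coding genes held at least 1 match and 0.0866% held as many as 8. Only Snrpn was taken at an internal start, picked because its calls lie there, and every other gene at its annotated gene start. For Snrpn these shares are thus for scale only. The YY1-type motif GCCATNTT, for the repressor and activator YY1, had 5 matches in those 2 kb of Peg3 and 1 in those of Snrpn. At least 1 was found in 29.9% of genes, and 0.0684% held as many as 5. The other members held 0 to 3 hexamers and 0 or 1 YY1-type match, with the most hexamers at Mkrn3. No match overlaps another in the stretches printed next, and a match is a match of letters only.

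The stretches with the most matches in the first introns of Peg3 and Snrpn are printed from GRCm38, on the minus strand, which both genes use, with every match of either motif in capitals. The first has 3 hexamers and 2 YY1-type matches, the second 3 YY1-type matches and the third 4 hexamers.
Peg3 intron 1, chr7:6729450-6729729: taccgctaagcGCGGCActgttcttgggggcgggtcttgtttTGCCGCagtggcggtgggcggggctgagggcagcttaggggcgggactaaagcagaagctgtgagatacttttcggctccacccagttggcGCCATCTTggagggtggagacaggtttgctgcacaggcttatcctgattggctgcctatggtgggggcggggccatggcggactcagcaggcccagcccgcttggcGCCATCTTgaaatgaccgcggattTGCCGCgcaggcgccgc
Peg3 intron 1, chr7:6727828-6727987: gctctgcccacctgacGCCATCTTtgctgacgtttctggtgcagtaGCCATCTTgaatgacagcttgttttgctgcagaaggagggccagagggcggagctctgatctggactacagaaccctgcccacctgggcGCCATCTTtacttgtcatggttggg
Snrpn intron 1, chr7:60004597-60004876: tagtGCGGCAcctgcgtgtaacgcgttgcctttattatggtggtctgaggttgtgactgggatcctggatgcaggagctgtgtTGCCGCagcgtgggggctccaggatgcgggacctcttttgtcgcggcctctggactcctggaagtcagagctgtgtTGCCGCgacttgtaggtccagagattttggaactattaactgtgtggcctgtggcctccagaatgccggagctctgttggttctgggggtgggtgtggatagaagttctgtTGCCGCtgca
These stretches were picked for their matches and lie away from the start, so a share over genes says nothing of them. For scale only, 18.4% of protein-coding genes held a hexamer in the first 280 bases after their start and 4.85% a YY1-type match in the first 160.

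H3K9me3 was called over the shared start of Peg3 and Usp29 and over the internal start of Snrpn in all 3 WT libraries and in no KO library. At Peg3 (ENSMUSG00000002265, 6703892 to 6730431), which encodes a zinc-finger protein, the WT calls were 17200, 17600 and 16400 bp wide. They held 1036, 973 and 907 ChIP reads, at a log2 fold over input of 1.90, 1.96 and 2.06. No KO library had a call on any of these bases. Over the whole Peg3 window, calls covered 14831, 14431 and 18431 bp in the WT and 3200, 0 and 0 bp in the KO. The means were 15898 ± 2203 bp and 1067 ± 1848 bp (SD, n = 3 each), or 43.5% and 2.92% of the window. The only KO call in the window lay near the 3′ end of Peg3, where WT replicate 3 also had a call.

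**Figure D1:**
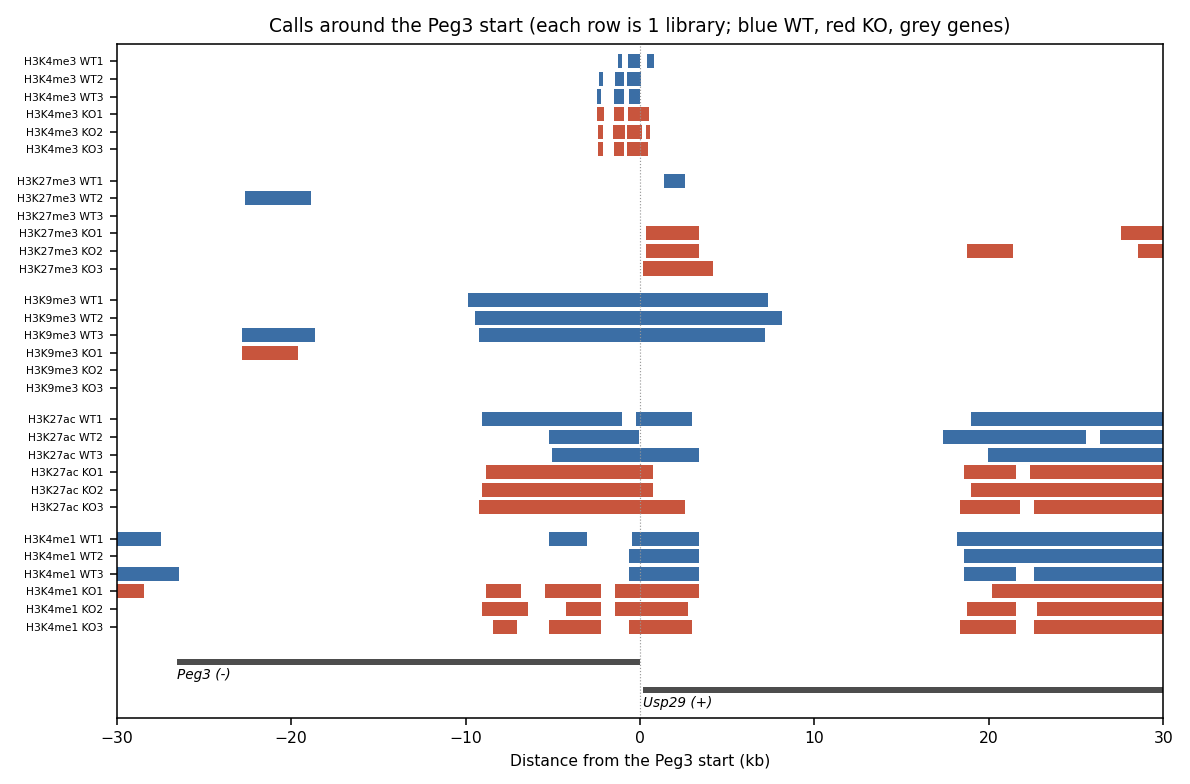
Calls of all 30 libraries in the 60 kb around the Peg3 start, by distance in kb, with blue bars for WT, red bars for KO and grey bars for genes. The H3K9me3 bars that span the start are present in the 3 WT rows and absent from the 3 KO rows, while H3K4me3, H3K27ac and H3K4me1 bars stand at the start in both genotypes.

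Snrpn (ENSMUSG00000102252, 59982495 to 60140219) encodes a small nuclear ribonucleoprotein of the splicing machinery. The WT calls over its internal start were 8200, 8400 and 21400 bp wide, with 430, 370 and 689 ChIP reads and a log2 fold over input of 2.33, 2.22 and 1.69. Here too, no KO library had a call. WT replicates 1 and 2 had further calls within the next 14 kb upstream, where the call of replicate 3 ran on without a break. Calls covered 16600, 16400 and 22800 bp of the window in the WT and 2000, 2600 and 1600 bp in the KO. The WT mean of 18600 ± 3639 bp stood against 2067 ± 503 bp in the KO (SD, n = 3 each).

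What remained in the KO windows was a separate H3K9me3 region about 45 kb upstream of the internal start, in the long annotated 5′ part of Snrpn (60049601 to 60052800). Its reads per covered kb were 36, 35 and 50.7 in the WT and 36.5, 38.5 and 46.3 in the KO, with overlapping groups. In the edgeR fit, which corrects for the length of the calls, its log2 fold change was 0.03 ± 0.24 (SE). Within 1 gene window, then, 1 region was not called in the KO and another was called in every library.

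Usp29, a ubiquitin-specific protease gene read away from the Peg3 start, had 12223, 13042 and 12023 bp of H3K9me3 calls in the WT and 819, 0 and 1419 bp in the KO. Zim1, a zinc-finger gene next to Peg3, had 3000, 6000 and 5600 bp against 2400, 2800 and 2400 bp. The Zim1 groups were apart by 200 bp at the least, and the reads per covered kb of the merged region (6674401 to 6682200) overlapped, at a log2 fold change of 0.39 ± 0.16 (SE) in the length-corrected fit. Ndn, Magel2, Mkrn3, Peg12 and Ube3a had no H3K9me3 call in any library.

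All 4 members with H3K9me3 calls had KO values below all WT values, by covered bp and by ChIP reads per kb. The Peg3 and Usp29 windows share the WT call at their start, so these are not 4 separate places. Of all protein-coding windows with a call, 11.4% were lower in this way by covered bp and 12.2% by reads per kb, while 4.76% and 5.66% were higher. Since the members were selected on this contrast, the counts are read no further. Of 61378 merged H3K9me3 regions, 2.58% were called in 3 WT and 0 KO lists, as were 2 of the 7 regions at members. The H3K9me3 lists as a whole covered 202 to 207 Mb in the WT and 172 to 186 Mb in the KO, and the part of this in the member values was not tested.

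**Figure D2:**
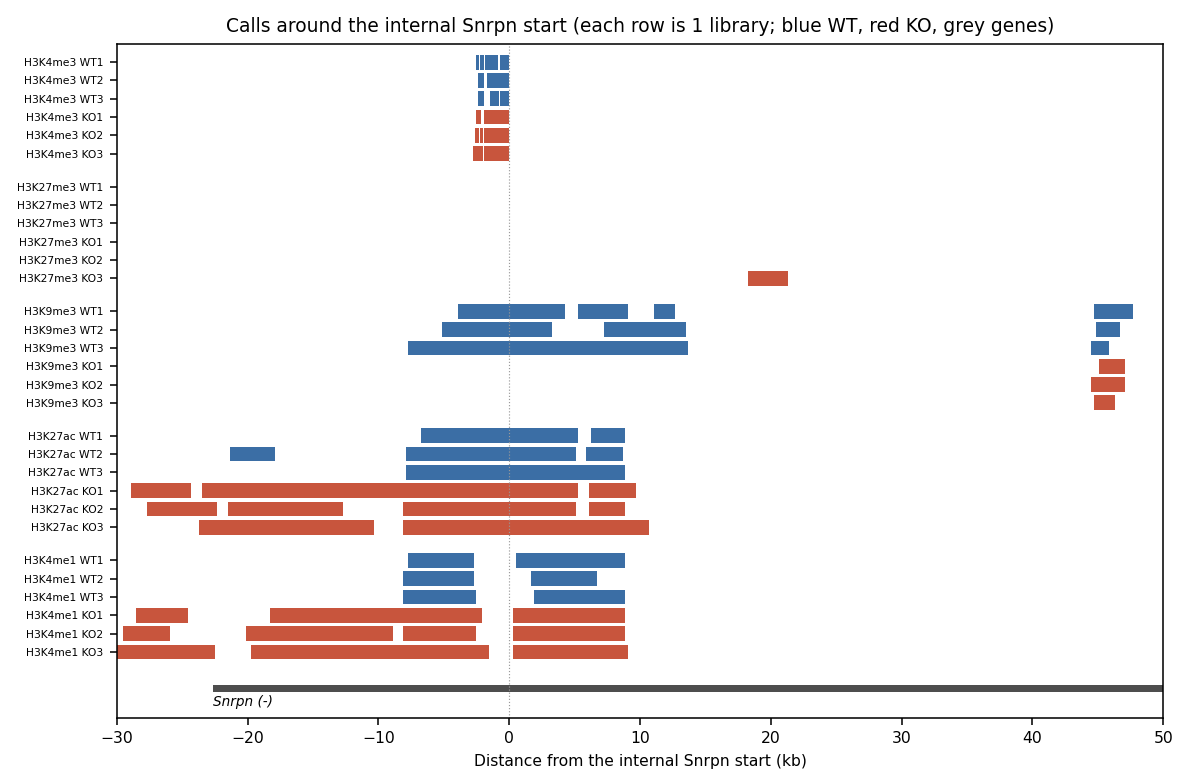
Calls of all 30 libraries around the internal Snrpn start, by distance in kb, with blue bars for WT, red bars for KO and a grey bar for the gene. H3K9me3 bars at the start are found in the WT rows alone, those about 45 kb away in all 6 rows, and the H3K27ac and H3K4me1 bars on the left reach further in the KO.

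Input reads, which the lists give inside calls only and from 1 input per genotype, could be set side by side at Snrpn. H3K27ac calls covered all 7200 bp of the Snrpn stretch that every WT H3K9me3 library covered (60001201 to 60008400), in 6 of 6 libraries. Input reads counted there were 205, 209 and 204 in the WT lists and 202, 211 and 214 in the KO lists. The H3K9me3 experiment had its own inputs, which give no KO value there. In 1 Mb windows, the input reads per kb of called sequence differed between genotypes, on the log2 scale and centred on the autosomes, by 0.13 at Peg3 and −0.20 at Ube3a and the 3′ end of Snrpn in the H3K9me3 experiment. The latter window does not hold the internal Snrpn start. The middle 95% of chromosome 7 windows ran from −0.33 to 0.23. In the H3K27ac, H3K4me1 and H3K27me3 experiments the values at the domains lay between −0.03 and 0.04.

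H3K4me3, the mark of active promoters, was called within 2 kb of the starts of 8 members in 6 of 6 libraries, at Ndn more than 1 kb inside the annotated start. Zim1 had a single call, in KO replicate 3. At the shared start of Peg3 and Usp29, calls within 2 kb of the annotated starts covered 1295, 1302 and 1216 bp in the WT and 1816, 1774 and 1820 bp in the KO. In KO replicates 1 and 3 the peak at the Peg3 start ran on past the Usp29 start, and in the WT and in KO replicate 2 it ended between the starts. A separate peak inside Usp29 was called in WT replicate 1 and KO replicate 2. The strongest peak there had a fold enrichment of 12.0, 10.5 and 6.97 in the WT and 7.96, 12.2 and 11.8 in the KO, so that the groups overlapped in height.

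At the internal Snrpn start, the strongest peak had a fold enrichment of 8.26, 8.14 and 9.91 in the WT and 13.2, 16.0 and 16.4 in the KO. Each KO library had 1 unbroken peak from the start into the gene, of 1.89 to 1.90 kb. WT replicate 2 also had an unbroken but shorter peak there, while in WT replicates 1 and 3 it was split. In the WT, the covered bp near the start sites were 1832, 1764 and 1437, and in the KO 1901, 1902 and 1889. Over the whole Snrpn window the groups overlapped in covered bp, at 2072 ± 242 and 2444 ± 184 (SD, n = 3 each).

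Ube3a, the ubiquitin ligase gene of Angelman syndrome, had 1604, 1871 and 1925 bp of H3K4me3 calls in the WT and 2057, 2240 and 2582 bp in the KO. Its strongest peak overlapped between the groups, with a fold enrichment of 9.37 to 15.3 in the WT and 9.15 to 11.7 in the KO. Mkrn3, which encodes a zinc-finger ubiquitin ligase known as a brake on puberty, went the other way, with 1570, 1560 and 1591 bp in the WT and 986, 1466 and 1557 bp in the KO. The Mkrn3 difference of −237 bp was −62.2 bp without KO replicate 1, and the groups overlapped over the gene body alone (−68.3 bp) and within 1 kb of the start. Ndn and Magel2, of the MAGE family, and Peg12, related to GSK-3 binding proteins, overlapped between the groups. By covered bp, 3 members were higher in the KO (Peg3, Usp29, Ube3a) and 1 was lower, against 24.5% and 7.25% of all windows with a call. The KO lists hold more H3K4me3 sequence in all, with up to 22.1 Mb against up to 19.3 Mb, and the part of this in the member values was not tested.

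Under the former H3K9me3 calls, H3K4me1 and H3K27ac reads were higher in the KO at Peg3. H3K4me1, a mark of enhancers and promoter flanks, had 338, 257 and 262 reads in the WT and 626, 591 and 598 in the KO within the 16.4 kb that all WT H3K9me3 libraries covered (6721201 to 6737600). H3K27ac, a mark of active promoters and enhancers, had 538, 327 and 451 reads in the WT and 739, 736 and 753 in the KO there. In reads of both marks every KO library lay above every WT library, but reads were counted inside calls only. The H3K4me1 calls in this stretch covered 6000, 4000 and 4000 bp in the WT and 10000, 8800 and 8000 bp in the KO. Input reads counted in them were 179, 114 and 114 in the WT and 325, 296 and 252 in the KO. The H3K27ac calls covered 11200, 5200 and 8400 bp against 9600, 9800 and 11800 bp, with overlapping groups. H3K27me3, the Polycomb mark, was called there in WT replicate 1 (47 reads) and in all KO libraries (135, 142 and 180 reads), and not in WT replicates 2 and 3, for which the lists give no count. These stretches were taken after the values were seen.

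The length-corrected fit takes only regions called in all 6 libraries. In it, the H3K27ac region at the Peg3 start (6721201 to 6733800) had a log2 fold change of 0.40 ± 0.09 (SE), and the H3K4me1 region (6729001 to 6733800) 0.32 ± 0.11 (SE). A further H3K4me1 region of 2600 bp inside Peg3 was called in 3 KO and 0 WT libraries, with 109, 137 and 86 reads. Such gain was seen in 1.49% of 69191 merged H3K4me1 regions, and in 2 of 30 at members, the other being at the 3′ end of Snrpn.

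At the internal Snrpn start, H3K27ac reads in the 7.2 kb stretch overlapped between the groups, at 537 ± 27.3 for the WT and 664 ± 159 for the KO (SD, n = 3 each). H3K4me1 reads there were 205, 154 and 149 in the WT and 354, 354 and 366 in the KO. The upstream H3K4me1 region (60005401 to 60014200) had 52.5, 57.2 and 55.4 reads per covered kb in the WT and 84.7, 78.5 and 77.0 in the KO, a log2 fold change of 0.58 ± 0.08 (SE). H3K4me1 thus differed in reads per kb of call as well as in the length called.

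Most of the Snrpn difference in these marks lay along the gene, downstream of the start. H3K27ac calls covered 14600, 19200 and 16800 bp of the window in the WT and 35706, 30106 and 32200 bp in the KO. The merged H3K27ac region (59976201 to 60015800) had a log2 fold change of 0.03 ± 0.05 (SE) once the call length was taken into account, so the called length differed and the reads per called kb overlapped. H3K4me1 calls covered 13400, 10400 and 12600 bp in the WT and 27906, 27106 and 32106 bp in the KO, and reads per kb of window went from 3.82 ± 0.390 to 10.9 ± 0.478 (SD, n = 3 each).

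Along Ube3a, more than 2 times as much sequence was called for H3K4me1 in the KO as in the WT. Calls covered 22600, 19800 and 24600 bp in the WT and 50600, 49800 and 49200 bp in the KO, or 24.1% and 53.7% of the window on average. Reads per kb of window were 12.8, 11.0 and 13.1 in the WT and 28.3, 26.5 and 27.6 in the KO. Between 18.05 and 46.45 kb downstream of the Ube3a start no WT library had a call, and each KO library had several. H3K27ac calls along Ube3a overlapped between the groups, at 4200, 4000 and 6400 bp in the WT and 14200, 8600 and 6400 bp in the KO. The H3K27ac region at the Ube3a start (59226601 to 59236400) had a log2 fold change of −0.26 ± 0.11 (SE) in the length-corrected fit, with groups that overlapped. In the 2 H3K4me1 regions along Ube3a called in all 6 libraries, reads per covered kb overlapped as well, with log2 fold changes of 0.04 ± 0.06 and 0.13 ± 0.09 (SE).

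**Figure D3:**
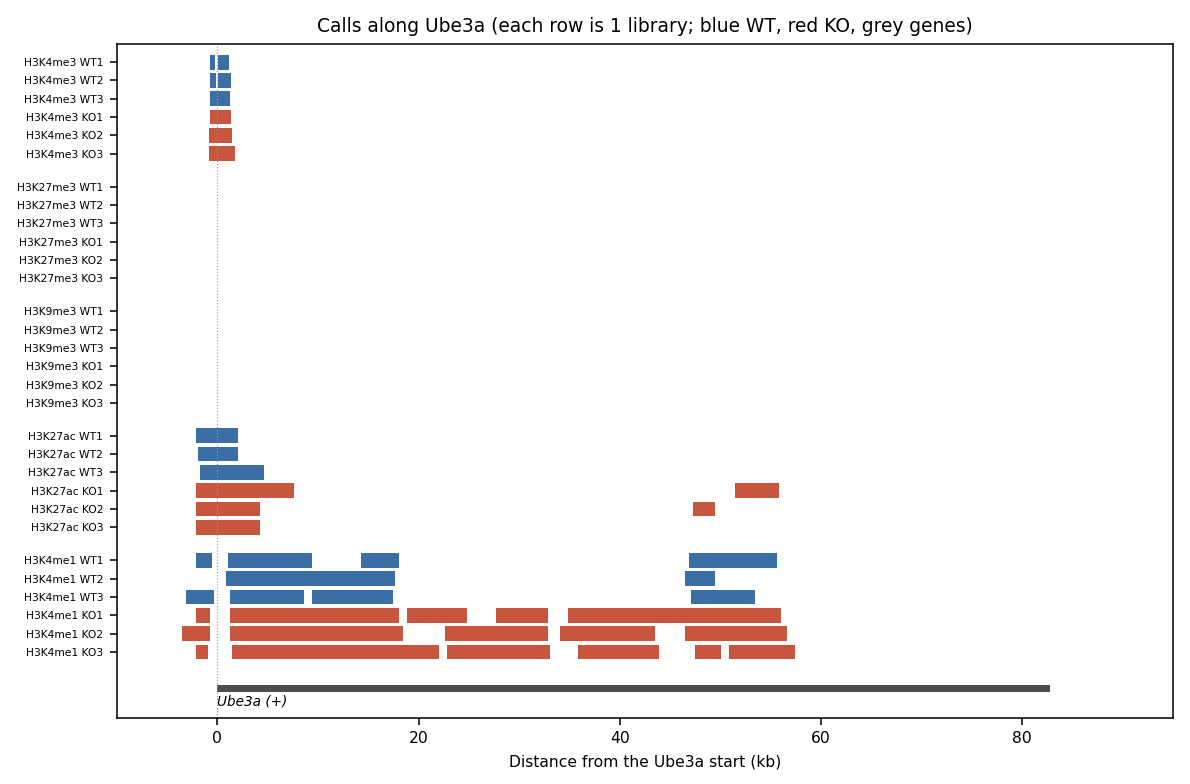
Calls of all 30 libraries along Ube3a, by distance from its start in kb, with blue bars for WT, red bars for KO and a grey bar for the gene. Between 18.05 and 46.45 kb, H3K4me1 bars stand in the KO rows and none in the WT rows, and no row has an H3K9me3 or H3K27me3 bar.

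In the Peg3 domain, less sequence was called for H3K4me1 over Usp29 in the KO. Usp29 had 79423, 64400 and 64200 bp of calls in the WT and 45823, 52800 and 51023 bp in the KO, and 16.8 ± 1.62 against 12.7 ± 0.818 reads per kb of window (SD, n = 3 each). In the Usp29 regions called in all 6 libraries, apart from the start shared with Peg3, log2 fold changes ran from −0.12 to 0.14 in the length-corrected fit. Their groups overlapped in reads per covered kb, except from 6908201 to 6915200, where the KO was lower. The region at the shared start had 0.32 ± 0.11 (SE). One Usp29 region of 4800 bp (6797401 to 6802200) was called in 3 WT and 0 KO libraries, as were 2.09% of all H3K4me1 regions. Zim1 had 10.6, 8.41 and 16.0 reads per kb in the WT and 8.03, 4.12 and 5.14 in the KO. The Zim1 groups overlapped in covered bp, and also in reads per kb after TMM scaling (−5.36, KO minus WT) or with whole calls taken by their midpoint (−5.57). Ndn had 12.5, 10.8 and 12.3 against 9.42, 9.35 and 8.18.

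By H3K4me1 coverage, 2 members were higher in the KO and 1 was lower, against 11.7% and 15.4% of windows. By H3K4me1 reads per kb, 3 were higher and 3 lower, against 17.5% and 30.3%. For H3K27ac, 1 member (Snrpn) was higher by coverage and 2 (Peg3 and Snrpn) by reads per kb, against 21.6% and 24.1%, and none was lower, against 8.2% and 10.8%. The H3K27ac libraries with the most reads in calls were KO replicates 1 and 2.

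**Figure D4:**
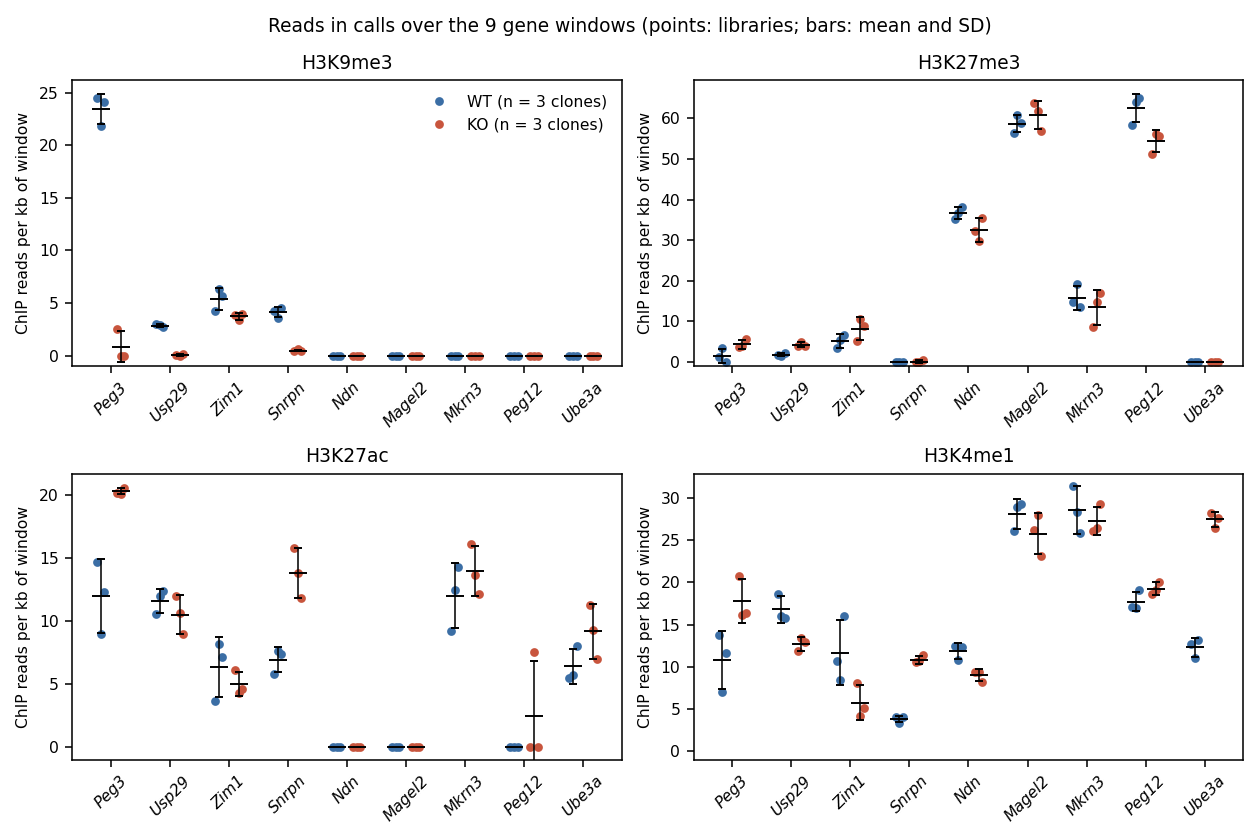
ChIP reads in calls per kb of gene window for the 9 genes and the 4 marks with counts, with 1 point per library (3 WT, 3 KO) and bars for the mean and SD. The WT and KO points of H3K9me3 are far apart at Peg3 and Snrpn, those of H3K4me1 at Snrpn and Ube3a, and Magel2 and Peg12 have the highest H3K27me3.

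By H3K27me3 reads per kb of window, Ndn, Magel2 and Peg12 lay above Ube3a, Snrpn and the Peg3 domain in both genotypes. Mkrn3 did so in the WT alone. In the KO its 8.70, 14.8 and 17.1 reads per kb overlapped with 5.23, 10.6 and 8.84 at Zim1. From Ndn to Peg12 (127.9 kb with the flanks), calls covered 83.8, 99.6 and 98.0 kb in the WT and 91.0, 81.6 and 99.6 kb in the KO. By reads per kb of window, Peg12 had 58.5, 64.1 and 65.0 in the WT and 51.3, 56.2 and 55.7 in the KO, and Magel2 56.4, 60.7 and 59.0 against 63.7, 61.8 and 56.9. Ndn had 36.7 ± 1.47 and 32.5 ± 2.90 and Mkrn3 15.9 ± 2.99 and 13.5 ± 4.34 (SD, n = 3 each). In the WT the levels of Peg12 and Magel2 overlapped, Ndn lay below both and Mkrn3 below Ndn. Over the body of Mkrn3, where H3K4me3 and H3K27ac were called, H3K27me3 had a short call in 4 libraries and none in replicate 1 of either genotype.

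**Figure D5:**
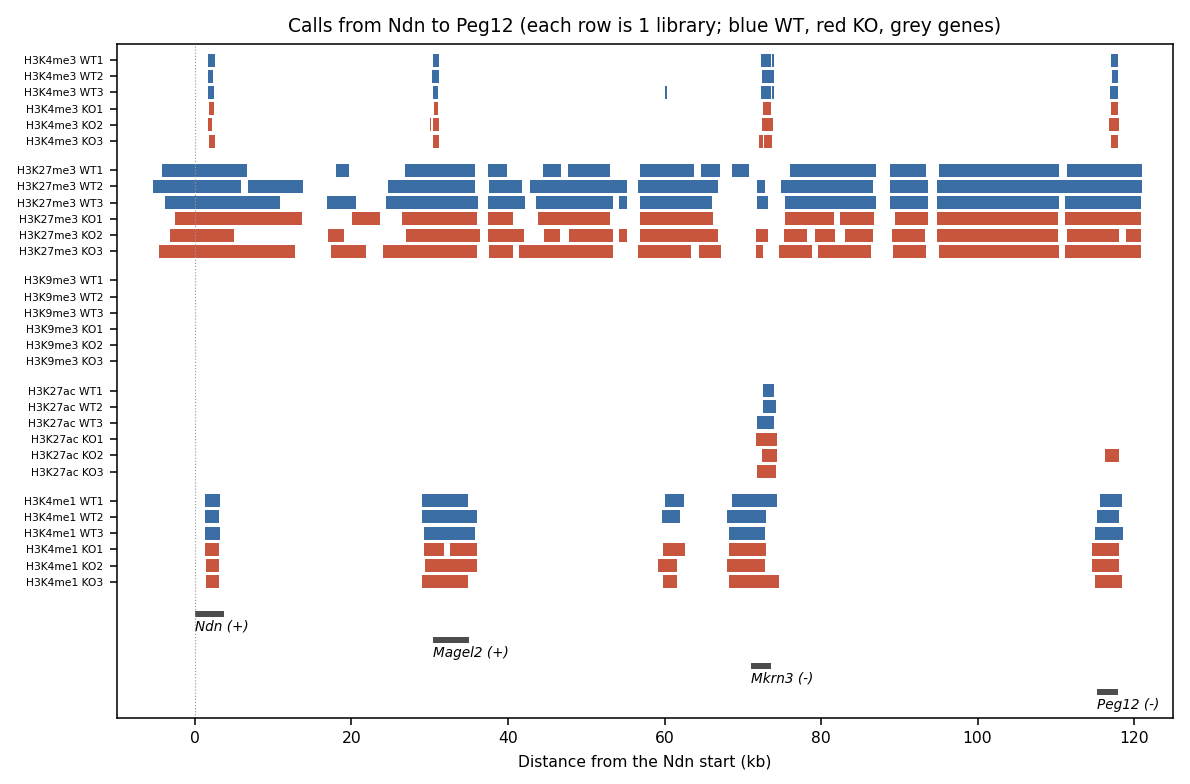
Calls of all 30 libraries from Ndn to Peg12, by distance from the annotated Ndn start in kb, with blue bars for WT, red bars for KO and grey bars for genes. H3K27me3 bars run through most of the stretch in every row, H3K4me3 and H3K4me1 bars stand at each gene, H3K27ac bars at Mkrn3 in all rows and at Peg12 in KO replicate 2, and there is no H3K9me3 bar.

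Over Snrpn, H3K27me3 was called in KO replicate 3 alone (3000 bp), and over Ube3a in no library. Usp29 had 12800, 15200 and 21600 bp in the WT and 34400, 42400 and 33800 bp in the KO, or 1.87 ± 0.406 against 4.31 ± 0.576 reads per kb of window (SD, n = 3 each). Peg3 had 1.29 and 3.44 reads per kb of window in WT replicates 1 and 2 and no call in replicate 3, taken as 0, against 3.69, 3.89 and 5.70, and those of the Zim1 window overlapped. By coverage, 1 of the 8 members with a call was higher in the KO (Usp29) and none was lower, against 10.9% and 7.61% of windows. By reads per kb, Peg3 and Usp29 were higher and Peg12 was lower, against 17.2% and 11.4%. The Peg3 groups overlapped with 10 kb either side (a KO minus WT difference of 1.96 reads per kb), after scaling by total reads (2.59) and over the gene body alone (−1.14). The Peg12 groups overlapped over the gene body alone (−1.08) and with whole calls taken by their midpoint (13.5). The H3K27me3 lists as a whole covered 214 to 259 Mb in the WT and 267 to 278 Mb in the KO, and the part of this in the member values was not tested. The length-corrected fit held 9 merged H3K27me3 regions at members. Groups were apart in reads per covered kb over Peg12 (62441401 to 62467600), between Mkrn3 and Peg12 (62421201 to 62433600) and next to Magel2 (62384001 to 62401800). Their log2 fold changes were −0.18 ± 0.07, −0.22 ± 0.09 and −0.16 ± 0.08 (SE). In the other regions the groups overlapped. The share of all merged regions with groups apart was not computed, so these have no background.

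The flanks were compared with the same fit and were tested, since the neighbouring genes were taken by position alone. The members beside them were chosen on this contrast, so the flanks are not fully independent of it. The 46 other protein-coding genes within 1 Mb of a member held 9 H3K27me3, 34 H3K9me3, 20 H3K27ac and 30 H3K4me1 regions called in all 6 libraries and outside the member windows. Of these, 1, 0, 1 and 0 passed an adjusted p of 0.05 in edgeR's quasi-likelihood test, against 2.73%, 0.435%, 12.8% and 5.64% of all regions tested. At an unadjusted p under 0.05 in the edgeR test there were 2, 10, 7 and 3, and in each mark these went in both directions. The share of all regions at that unadjusted p was not computed, so these counts have no background. At the adjusted threshold, DESeq2 gave the same counts of 1, 0, 1 and 0, where 499, 275, 2860 and 3286 of all regions were called.

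Zfp787, a zinc-finger gene on the flank of Peg3, had the H3K27me3 region that rose (6121601 to 6136000). Its reads per covered kb were 39.3, 35.9 and 33.6 in the WT and 56.6, 64.1 and 60.4 in the KO, a log2 fold change of 0.73 ± 0.08 (SE) at an edgeR adjusted p of 0.000112, and 3.31e-10 to 0.00109 over the 11 alternatives. The same place had an H3K9me3 region (6129801 to 6138600) with 959, 761 and 754 reads in the WT and no call in the KO. It was the only one of 58 flanking H3K9me3 regions called in 3 WT and 0 KO libraries, against 2.58% of all H3K9me3 regions. An H3K4me1 region there (6130201 to 6134400) had no call in the WT and reads of 258, 276 and 261 in the KO. Of 45 flanking H3K4me1 regions, 2 were called in 3 KO and 0 WT libraries, against 1.49% of all. The other lay at Atp10a (58682601 to 58687000). The H3K27ac region over Galp and Zscan5b (6202201 to 6225400), named after its value was seen because the count was 1, fell by 0.18 ± 0.05 (SE) on the log2 scale at an edgeR adjusted p of 0.0345. Its groups overlapped in reads per covered kb, and over 12 alternatives the adjusted p ran from 0.00247 to 0.142, with 6 past the threshold and 0.0610 with the replicate block.

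The genes most like Peg3 and Snrpn were sought by the share of the gene window covered in each of the 30 lists. Washc2 on chromosome 6 was nearest to Peg3, with a mean absolute difference of 0.0740 in covered share, followed by Adcy1 (0.0755) and Ccpg1os (0.0766). H3K9me3 calls covered 30.3% of the Washc2 window in the WT and 4.12% in the KO, and 12.8% and 12.5% of the Adcy1 window. Nearest to Snrpn were Tmem29 on chromosome X (0.0220), Gm5155 on chromosome 7 (0.0253) and Scfd2 on chromosome 5 (0.0256), whose H3K9me3 shares went from 3.83% to 1.59%, from 9.36% to 4.89% and from 4.51% to 3.70%. No other quantity entered the measure, and the 30 points share their libraries.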

How the data were processed

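ChIP-seq of 5 histone marks in 3 WT and 3 KO libraries each was analysed from call lists. The authors trimmed reads (Trim Galore 0.6.6), aligned them to GRCm38 (Bowtie2 2.4.4) and called H3K4me3 peaks with MACS2 2.2.7.1 and the other marks with epic2, listed in the submitters' notes as SICER 0.0.52. The methods do not discuss H3K9me3, so these steps are not stated for that mark by name. One antibody is given in the labels for both H3K4me1 and H3K27ac, while the methods give a different one for H3K27ac. The deposited epic2 lists give, per call, the count of ChIP reads and of input reads, a p-value and FDR, a score and a log2 fold change over input, in steps of 200 bp. The deposited H3K4me3 lists give a fold enrichment (a ratio), a score and −log10 p and q values, and no count. A count exists only where a call was made, so an absent call is not a count of 0.

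The member genes and all lists were chosen with earlier results of these data known. Covered bp and ChIP reads (prorated by overlap) were summed over each gene body with 5 kb either side, unscaled between libraries. Promoter values used 2 kb either side of every annotated protein-coding transcript start, which adds the internal Snrpn start to the annotated gene start. Groups were called apart when all 3 libraries of one genotype lay beyond all 3 of the other, and the same rule over all protein-coding windows with a call gave the background shares. Calls of the 6 libraries of a mark were merged where they overlapped by at least 1 bp, and regions called in all 6 were fitted with edgeR 4.0.16 in R 4.3.3, with the covered length as an offset, TMM factors from length-scaled reads, the quasi-likelihood test and Benjamini-Hochberg adjustment. Only flanking genes were tested. Standard errors were taken from the F statistic. The script was tested on simulated data. DESeq2 1.42.0 was an alternative. By the rule, named genes were the 9 members, flanking genes with a region past the threshold and groups apart, and the 3 genes nearest in covered share to Peg3 and to Snrpn. Galp and Zscan5b, with overlapping groups, fall outside it. The 8 input samples were not analysed here as files. Overlaps were computed in Python 3.11.15 (pandas 2.3.3, numpy 2.4.6) and figures drawn with matplotlib 3.10.9. Read depth sets what could be called, and reads of 1 position are not independent molecules.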

Additional observations from a re-analysis of the deposited data

How the results depend on the processing

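Groups that are apart stay apart when 1 library is left out, so the counts of members apart could only stay or rise. For H3K9me3 only 4 members had a call and all 4 were apart by both measures, so these counts could not change. This says nothing of how stable the counts are. In other marks the counts ranged over the left-out libraries by covered bp from 1 to 3 (H3K27ac), 3 to 5 (H3K4me1), 4 to 5 (H3K4me3) and 1 to 2 (H3K27me3). By reads per kb they ranged from 3 to 5 for H3K27me3, 2 to 3 for H3K27ac and 6 to 7 for H3K4me1. The highest counts came without WT replicate 1 or 3 for H3K27ac (3), without WT replicate 2 or KO replicate 1 for H3K4me1 (5) and without KO replicate 3 for H3K27me3 by reads per kb (5). H3K27ac by covered bp gave 2 members with an FDR under 0.01, with the gene body alone and with equal numbers of top calls. With the gene body alone the counts by covered bp were 2 for H3K4me3 and 5 for H3K4me1, and by reads per kb 1 for H3K27me3. With 10 kb either side, H3K27me3 gave 2 by covered bp. Of 319 single values under these alternatives, 168 came from leaving out 1 library, which cannot turn the direction of groups that are apart. Among the rest, 2 turned direction, both with groups that then overlapped. The H3K27me3 reads per kb of Peg3 were lower in the KO by −1.14 over the gene body alone, and those of Peg12 higher by 13.5 with whole calls taken by their midpoint. The H3K9me3 groups of Zim1 overlapped in reads per kb after scaling by total reads or TMM. The causes were not tested.

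Flanking regions called by edgeR numbered 0 for H3K27me3 with covered lengths within a ratio of 0.8. Only 1 such region was tested at that setting, against 9 in the main fit, and the Zfp787 region was left out of it. Without the length offset, H3K9me3 gave 6 of 34 (2024 of 27342 over all regions) and H3K4me1 gave 3 of 30 (10341 of 44625). With the length ratio, H3K4me1 gave 1 of 7 (4758 of 10959 over all regions). H3K27ac gave 2 of 20 with RLE scaling (3080 of 24039 over all regions) and 2 of 6 with the length ratio (2145 of 4054). It gave 3 of 20 without the offset (5902 of 24039) and 0 with the replicate block (2844 of 24039). With 1 library left out it gave 0 to 2, with 0 without WT replicate 1 or 3 or KO replicate 2 or 3. Over all regions, 2198 to 2567 were called with 1 library left out. Same-numbered WT and KO libraries correlated at −0.02 to 0.03 in their deviations from the group means, and differently numbered ones at −0.03 to 0.01. For H3K4me1 every same-numbered pair (0.0027 to 0.0082) lay above the highest other pair (0.0016), which was not so for the other marks. Whether the numbers pair the samples was thus not settled. With the replicate block, H3K27me3, H3K9me3 and H3K4me1 kept counts of 1, 0 and 0, where 479, 90 and 2124 of all regions were called. In 5 Mb windows, the centred log2 input difference lay outside the middle 95% of chromosome 7 windows for H3K27me3 from 5 to 10 Mb (−0.0681, range −0.0614 to 0.0851) and from 55 to 60 Mb (0.146), and for H3K4me1 from 55 to 60 Mb (0.0309, range −0.0348 to 0.0278). It lay inside for the rest, with −0.0894 near Peg3 and −0.165 from 55 to 60 Mb for H3K9me3 and 0.0265 near Ndn for H3K4me1. Depth limits the low calls, and a mark below the calling threshold was not detectable from these lists.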

Other observations

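Between the windows of Ube3a and Snrpn lie 661 kb that no member covers, which hold the long antisense transcript Snhg14. H3K9me3 calls covered 48.8, 50.8 and 42.2 kb of it in the WT and 35.8, 24.8 and 28.8 kb in the KO, and the reads per kb were 5.998 ± 0.648 and 3.67 ± 0.641 (SD, n = 3 each). The H3K9me3 groups were apart in both measures. H3K4me3 and H3K27me3 had no call there in any library. In the 2196 kb between Snrpn and Ndn, H3K9me3 calls covered 84.6, 74.8 and 90.4 kb in the WT and 69.2, 56.6 and 59.4 kb in the KO, while the reads per kb overlapped, at 1.58 ± 0.189 and 1.25 ± 0.297 (SD, n = 3 each). These stretches were measured after the member values were seen and without a test.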
